A study of Mus musculus with 8 samples.

Results

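Collagen chains are the genes whose protein is 1 strand of a collagen triple helix, and on the expression array used here they were taken as all probes whose gene symbol consists of Col, a type number, the letter a and a chain number. This gave 58 probes of 36 genes among 25697 probes of 18138 genes. Primary skin fibroblasts of 4 Nd2-mutant mice (strain C57BL/6J-mtALR/LtJ; mice 28 and 32 male, 34 and 35 female) were compared with those of 4 control mice (strain C57BL/6J-mtAKR/J; mice 16 and 17 male, 15 and 37 female). All mice were 12 months old, 1 array was hybridised per mouse, and the cells had been grown in DMEM with serum and antibiotics. Both strains are conplastic, which means that after repeated backcrosses they are regarded as sharing the nuclear genome of C57BL/6J. The collagen genes themselves are thus taken to be the same in both, which was not examined here. The mitochondrial genome, with Nd2, a subunit gene of complex I, differs. No treatment is named for the cells on the arrays, the methods give their passage as 1, and each array stands for the culture of 1 mouse. The question for the collagens was whether any class of them differed in RNA level between the strains.

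Collagen chains assemble in threes in the endoplasmic reticulum, either as 3 copies of 1 chain or as mixtures of related chains, after prolines and lysines have been hydroxylated. Fibrillar collagens build the banded fibres that give dermis its tensile strength, and types I, III and V are the usual ones in skin. Type IV collagens form the sheet of the basement membrane, FACIT collagens (fibril-associated collagens with interrupted triple helices) sit on the surface of fibrils, and the remaining types include the beaded filaments of type VI, the anchoring fibrils of type VII and membrane-spanning or endostatin-bearing collagens. Dermal fibroblasts are the main source of the fibrillar chains, whereas keratinocytes and endothelial cells make part of the basement membrane chains.

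A probe was counted as detected on an array when its detection p-value was under 0.01, and it entered the test when either strain had it detected on each of its 4 arrays. Of the 58 collagen probes, 25 probes of 22 genes passed, 26 were detected on no array and 7 on some arrays only. The 14 genes without a tested probe were Col2a1, Col11a1, Col11a2 and Col27a1 among the 11 fibrillar genes, Col4a3, Col4a4 and Col4a6 among the 6 type IV genes, Col9a1, Col9a2, Col9a3 and Col19a1 among the 7 FACIT genes, and Col10a1, Col13a1 and Col25a1 among the 12 others. Col2a1, Col9a1, Col10a1 and Col11a1, which mark cartilage, were among the genes with no detected probe, as were 5 of 7 cartilage and bone markers on the array. All 8 fibroblast markers on the array (Pdgfra, Pdgfrb, Thy1, Dcn, Lum, Vim, Fap and S100a4) were tested, and their summed intensity lay between 24851 and 28299 in Nd2-mutant and between 20938 and 30156 in control fibroblasts. Intensities are given on the linear scale of the normalized table. In bulk RNA, fewer cells of a type and less RNA per cell cannot be told apart.

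1 array stood apart before any comparison. The array of control mouse 15 had the highest intensity of the 8 for 14 of the 25 tested collagen probes (56%), against 26.5% of the 10414 probes tested in all. The lowest intensity was also on this array for 31.4% of all tested probes and for 1 of the 25 collagen probes. For this array the mean Pearson's r with the others was 0.934, against 0.963 to 0.974 for the other arrays. Its mean deviation over the 25 probes was 0.56 on the log2 scale, whereas the other 7 mice lay between -0.32 (control mouse 16) and 0.13 (Nd2-mutant mouse 35). By class, mouse 15 deviated by 0.82 in the other collagens, 0.53 in the fibrillar, 0.30 in the FACIT and -0.05 in the basement membrane collagens. The endothelial markers, summed over the 7 listed genes, were also highest in mouse 15 (617, with 133 to 382 in the other mice), and so were the Schwann cell markers (182, with 41.2 to 93.9 in the others). The summed fibroblast markers were highest in mouse 15 too (30156, with 20938 to 28299 in the others). Their part in the collagen values was not tested. Class medians and several single probes are also given without this mouse. No log2 difference between the strains without it is given for some probes in which it was highest, among them Col5a3, Col17a1, Col23a1 and Col24a1.

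**Figure D1:**
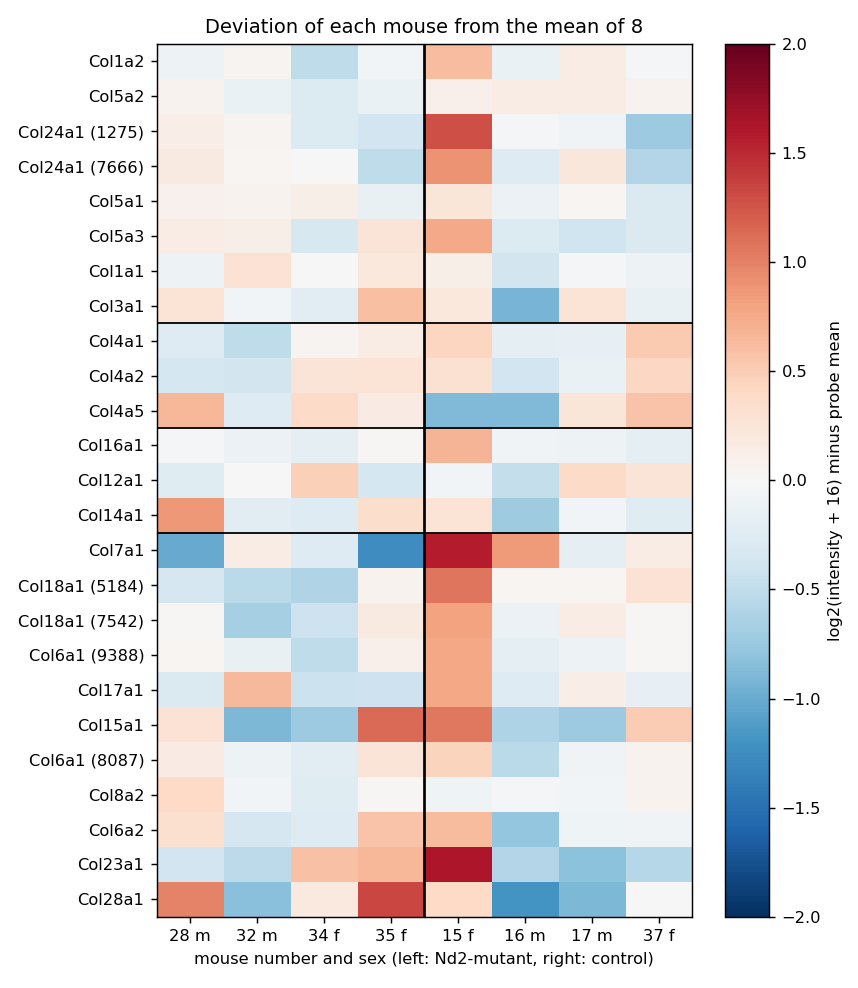
Deviation of each of the 8 mice (columns, with mouse number and sex) from the mean of all 8 on the scale of log2(intensity + 16), for the 25 tested collagen probes (rows, separated by class; the last digits of the probe name are given where a gene has several). Red is above and blue below the mean of the probe, and the column of control mouse 15 holds the highest value in 14 of the 25 rows.

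None of the 25 collagen probes passed the test between the strains after adjustment over all tested probes. With limma 0 collagen probes had an adjusted p under 0.05 (0 of all 10414 probes, or 0%), and the smallest adjusted p of a collagen probe was 0.639. 2 collagen probes of 25, those of Col7a1 and Col18a1, had an unadjusted p under 0.05, against 7.63% of all tested probes, and both were lower in Nd2-mutant fibroblasts, as were 3.13% of all tested probes. The methods' t-test, run here on the log2 scale, gave 0 collagen probes after adjustment (1 of all tested probes). Before adjustment it gave 2, Col18a1 and Col5a2, against 6.7% of all tested probes. The strain differences listed in the paper are on the linear scale, where limma gave 1 unadjusted, Col5a2, against 6.02%. The paper's list of lower genes holds Col5a2 but not Col18a1 or Col7a1. Only Col5a2 had no overlap between the strains, 1 probe of 25, against 4.37% of all tested probes. In Nd2-mutant fibroblasts 11 of the 25 probes were higher and 14 were lower, with a median log2 difference of -0.09, against a median of 0.00093 and 49.8% lower among all tested probes. Without control mouse 15 the split was 15 higher and 10 lower, the median was 0.14 and 5 collagen probes had an unadjusted p under 0.05: Col7a1 and Col18a1, lower, and Col5a3, Col23a1 and Col28a1, higher, against 7.91% of all probes.

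**Figure D2:**
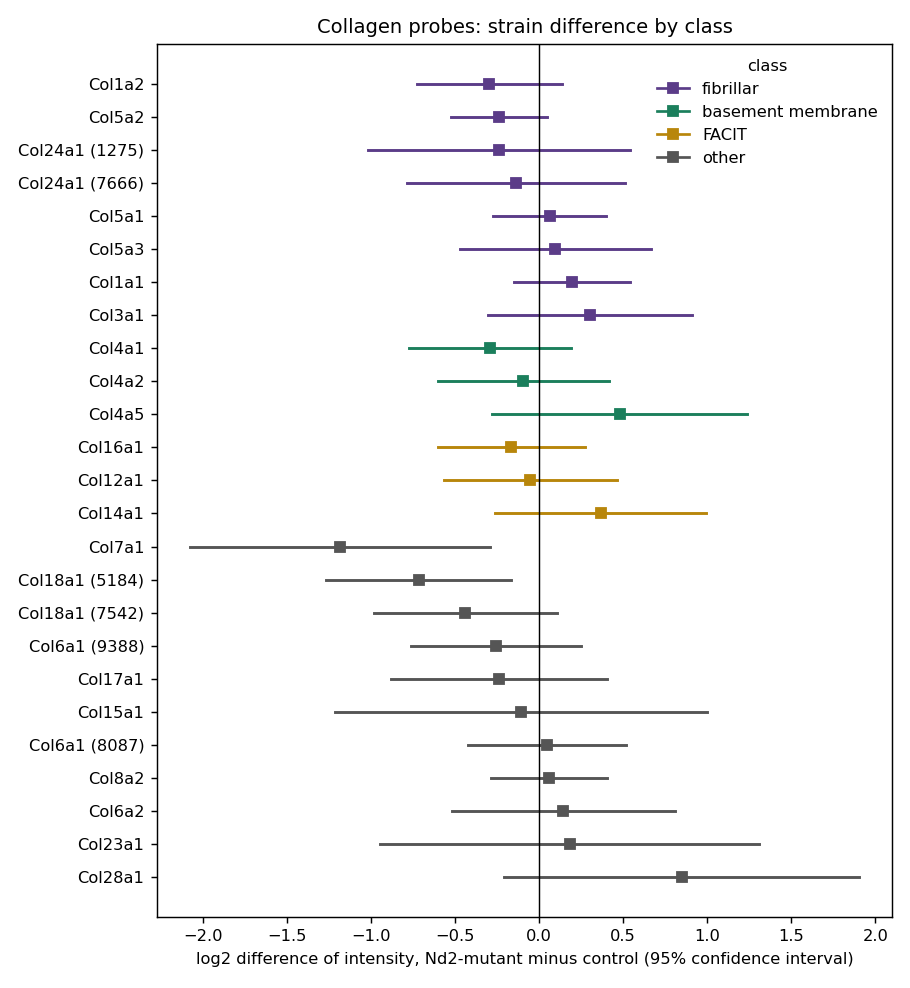
Log2 difference of intensity between Nd2-mutant and control fibroblasts (squares) with the 95% confidence interval from limma (lines) for the 25 tested collagen probes, ordered by class and by size. The intervals of Col7a1 and of Col18a1 ILMN_2735184 exclude 0 before adjustment for the number of probes tested, and all others include it.

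The 8 tested fibrillar probes, of 7 genes, were balanced, with 4 higher and 4 lower and a median log2 difference of -0.04 (0.15 without control mouse 15). Col1a1 (ILMN_2687872, chromosome 11) encodes the chain that is present as a pair in each type I molecule. Its intensity was 8855, 11596, 9406 and 11027 in Nd2-mutant mice 28, 32, 34 and 35 and 10274, 7364, 9261 and 8855 in control mice 15, 16, 17 and 37. The strains overlapped, with 10221 ± 1300.2 against 8938 ± 1208 (SD, n = 4 each) and a log2 difference of 0.19 (95% confidence interval -0.15 to 0.54, adjusted p = 0.717, limma). Col1a2 (ILMN_1253806, chromosome 6), its partner chain, had 1778, 1977, 1338 and 1837 in the Nd2-mutant mice and 2920.4, 1729, 2103 and 1859 in the control mice, in the same order of mice. The high value was that of mouse 15, and the log2 difference of -0.30 (adjusted p = 0.682, limma) was -0.14 without it. The estimates for the type I chains thus had opposite signs, and neither passed the test.

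Col3a1 (ILMN_1258629, chromosome 1), the single chain of type III collagen, which is laid down together with type I in skin, had 1633, 1296, 1167 and 2045 in Nd2-mutant and 1558, 699, 1624 and 1216 in control fibroblasts. Nd2-mutant mouse 35 was highest and control mouse 16 lowest, and the log2 difference was 0.30 (95% confidence interval -0.31 to 0.91, adjusted p = 0.746, limma). Without control mouse 16 it was 0.04. Col5a1 (ILMN_2748402, chromosome 2), a chain of type V collagen, which sits in the core of fibrils and limits their diameter, lay between 6477 and 7836 in Nd2-mutant and between 5909.6 and 8476 in control mice. Its log2 difference of 0.06 was smaller than its standard error of 0.15.

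Col5a2 (ILMN_2802687, chromosome 1) is the second chain of type V collagen and the neighbour of Col3a1 in the RefSeq gene order. Its intensities were 92.7, 78.2, 69.9 and 78.7 in the Nd2-mutant mice 28, 32, 34 and 35 and 95.6, 99.1, 99.2 and 92.8 in the control mice 15, 16, 17 and 37. All 4 Nd2-mutant values lay below all 4 control values, but the gap between Nd2-mutant mouse 28 and control mouse 37 was narrow. The means were 79.8 ± 9.45 and 96.7 ± 3.1 (SD, n = 4 each), a log2 difference of -0.24 (standard error 0.13, adjusted p = 0.648, limma). An exact permutation test gave p = 0.0286, its lower limit with 4 mice in each strain, which any probe without overlap reaches. Within males the log2 difference of Col5a2 was -0.19 and within females -0.29. Col5a3 and Col24a1, the remaining tested fibrillar genes, had log2 differences between -0.24 and 0.10 over 3 probes, and mouse 15 was the highest of the 8 mice for all 3.

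The 3 tested basement membrane probes, those of Col4a1, Col4a2 and Col4a5, had a median log2 difference of -0.09 (-0.01 without control mouse 15). Col4a1 (ILMN_2621643, chromosome 8) and Col4a2 (ILMN_2822579, chromosome 8) encode the chains of the common form of type IV collagen, 2 of the first to 1 of the second. Col4a1 had 2778, 2336, 3454 and 3684 in Nd2-mutant and 4502, 2899, 2986 and 4782 in control mice, a log2 difference of -0.29 (adjusted p = 0.701, limma). Col4a2 had 2206, 2194, 3386 and 3438 in Nd2-mutant and 3485, 2163, 2569.8 and 3777 in control mice, a log2 difference of -0.09 (adjusted p = 0.908, limma). In both genes it was the female mice, 34, 35, 15 and 37, that were high in either strain. Col4a5 (ILMN_2734755, chromosome X), a chain of the type IV network of kidney and skin, had the most positive estimate of the class, 0.48 (95% confidence interval -0.28 to 1.24, adjusted p = 0.696, limma). Its intensity was between 112 and 226 in Nd2-mutant mice, and in control mice it was 66.7 and 66.8 in mice 15 and 16 and 165 and 209.6 in mice 17 and 37. The estimate was 0.26 without mouse 15, 0.26 without mouse 16 and 0.75 without mouse 37, and 0.05 with array weights.

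In the FACIT class 3 probes were tested, with a median log2 difference of -0.05 (0.04 without control mouse 15). Col14a1 (ILMN_2591027, chromosome 15), which binds fibrils and limits their fusion, had the most positive estimate, 0.37 (adjusted p = 0.711, limma), with 62.8, 20.6, 20 and 38.7 in Nd2-mutant and 36.1, 10.2, 25.6 and 20.4 in control mice. Nd2-mutant mouse 28 was highest and control mouse 16 lowest, and without them in turn the log2 difference was 0.14 and 0.19. With 1 or 50 in place of 16 added before log2 it was 0.57 or 0.21. Col14a1 was detected on all 4 Nd2-mutant but only 3 control arrays, and thus entered the test only through the strain in which it was higher. Col16a1 (ILMN_1248099, chromosome 4) had the most negative, -0.16 (adjusted p = 0.81, limma), with 2256, 2131, 2009 and 2353 in Nd2-mutant and 3726, 2206, 2152 and 2027 in control mice. 7 of the 8 mice lay close together, and without mouse 15 the log2 difference was 0.04. Col12a1, the FACIT collagen of dense connective tissue, had a log2 difference of -0.05 with a standard error of 0.23.

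The 11 tested probes of other collagens, of 9 genes, had the widest range, from -1.18 to 0.85, and a median log2 difference of -0.11 (0.04 without control mouse 15). The lower end was formed by Col7a1 and Col18a1, both of which belong to basement membrane zones without being type IV chains. Col7a1 (ILMN_2901944, chromosome 9) encodes the chain of the anchoring fibrils that fasten the epidermal basement membrane to the dermis, and both keratinocytes and fibroblasts make it. Col18a1 (ILMN_2735184, chromosome 10) encodes a basement membrane collagen from whose end endostatin is released. Because the strains are taken to share the nuclear genome, the reference sequences before the starts of these genes are shown once for both. They are the 250 bases upstream of the outermost RefSeq start of each gene (build GRCm38.p6, 5′ to 3′ on the strand of the gene), with CCAAT boxes (CCAAT) and GC boxes (GGGCGG), on either strand, in capitals.
Col7a1, chr9:108953336-108953585, plus strand: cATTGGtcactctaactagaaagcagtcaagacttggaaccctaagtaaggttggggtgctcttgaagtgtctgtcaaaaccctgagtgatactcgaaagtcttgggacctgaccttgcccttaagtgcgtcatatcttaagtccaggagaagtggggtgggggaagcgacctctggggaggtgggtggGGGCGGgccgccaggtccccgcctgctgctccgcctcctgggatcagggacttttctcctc
Col18a1, chr10:77166531-77166780, minus strand: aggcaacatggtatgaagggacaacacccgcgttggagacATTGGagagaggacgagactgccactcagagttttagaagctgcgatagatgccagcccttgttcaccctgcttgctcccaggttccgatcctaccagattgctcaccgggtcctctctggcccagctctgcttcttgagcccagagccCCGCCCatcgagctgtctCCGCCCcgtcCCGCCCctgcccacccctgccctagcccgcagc
The Col7a1 window held 1 CCAAT box, on the opposite strand, and 1 GC box starting 61 bases before the start. The Col18a1 window held 1 CCAAT box and 3 GC boxes, all on the opposite strand. Among all 32851 windows of 250 bases in the RefSeq promoter set, 33.8% held a CCAAT box and 32.7% a GC box. A second RefSeq start of Col18a1 lies further downstream, and which start gave the measured RNA is not known from the array.

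Col7a1 had intensities of 78.6, 195, 143 and 65.1 in Nd2-mutant mice 28, 32, 34 and 35 and of 551, 328, 150.1 and 195 in control mice 15, 16, 17 and 37. Nd2-mutant mouse 32 lay level with control mouse 37 and above control mouse 17, so that the strains overlapped. The means were 120.4 ± 60.3 and 306 ± 179.9 (SD, n = 4 each), a log2 difference of -1.18 (95% confidence interval -2.07 to -0.29, unadjusted p = 0.0141, adjusted p = 0.639, limma), and the exact permutation p was 0.0857. Without control mouse 15 the log2 difference was -0.86, and with each mouse left out in turn it ran from -1.45 to -0.86, and with array weights it was -0.70. A second Col7a1 probe was detected on only 3 arrays, 1 Nd2-mutant and 2 control, and was not tested.

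Col18a1 had intensities of 767, 664, 637 and 1023 in the Nd2-mutant mice and of 2078, 1004, 999.8 and 1192 in the control mice, in the same order. Mouse 15 was far above the rest, and of the Nd2-mutant mice only mouse 35 reached the range of the control mice. The means were 773 ± 176 and 1319 ± 514 (SD, n = 4 each), a log2 difference of -0.71 (95% confidence interval -1.26 to -0.16, unadjusted p = 0.0158, adjusted p = 0.639, limma), with an exact permutation p of 0.0857. Without mouse 15 it was -0.48, with an unadjusted p of 0.0239 in limma. A second tested Col18a1 probe, ILMN_2937542, lay in the same direction with a log2 difference of -0.44 (standard error 0.24), and the remaining Col18a1 probe was detected on no array.

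The keratinocyte marker Krt14, which basal epidermal cells make, was measured on all 8 arrays, at 166, 1007, 38.3 and 77.9 in Nd2-mutant and 812, 313, 498 and 199 in control mice. Krt5, its usual partner, was detected on 1 array. Krt10, another keratinocyte marker detected on all 8 arrays, went differently. It was 131, 111, 150 and 131 in Nd2-mutant and 90.9, 112, 116 and 103 in control mice, and lowest in mouse 15. The sum of the 5 keratinocyte markers on the array was between 195 and 1168 in Nd2-mutant and between 324 and 944 in control fibroblasts. The part of such cells in the Col7a1 values was not tested. Col17a1, a collagen of the keratinocyte hemidesmosome, was highest in mice 15 and 32 (48.7 and 43.5), the mice with the most Krt14, and lay between 12.2 and 25.3 in the other 6. Its log2 difference between the strains was -0.24 (adjusted p = 0.812, limma). The summed endothelial markers, at 133 to 256 in Nd2-mutant and 223 to 617 in control mice, overlapped between the strains. Emcn, a sialomucin of endothelium and 1 of these markers, did not overlap, with 50.9 to 124.3 in Nd2-mutant and 125.4 to 272 in control mice. Of all tested probes 4.37% did not overlap. Emcn was the 1 tested endothelial gene of 4 with an unadjusted p under 0.05 (limma), against 7.63% of all tested probes. Tek, also detected on all 8 arrays, overlapped, with 21 to 91.2 in Nd2-mutant and 15.9 to 49.2 in control mice. Pecam1 (ILMN_2700982) overlapped too, with 14.2 to 33.5 in Nd2-mutant and 23.1 to 88.6 in control mice. The part of endothelial cells in the Col18a1 values was not tested.

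**Figure D3:**
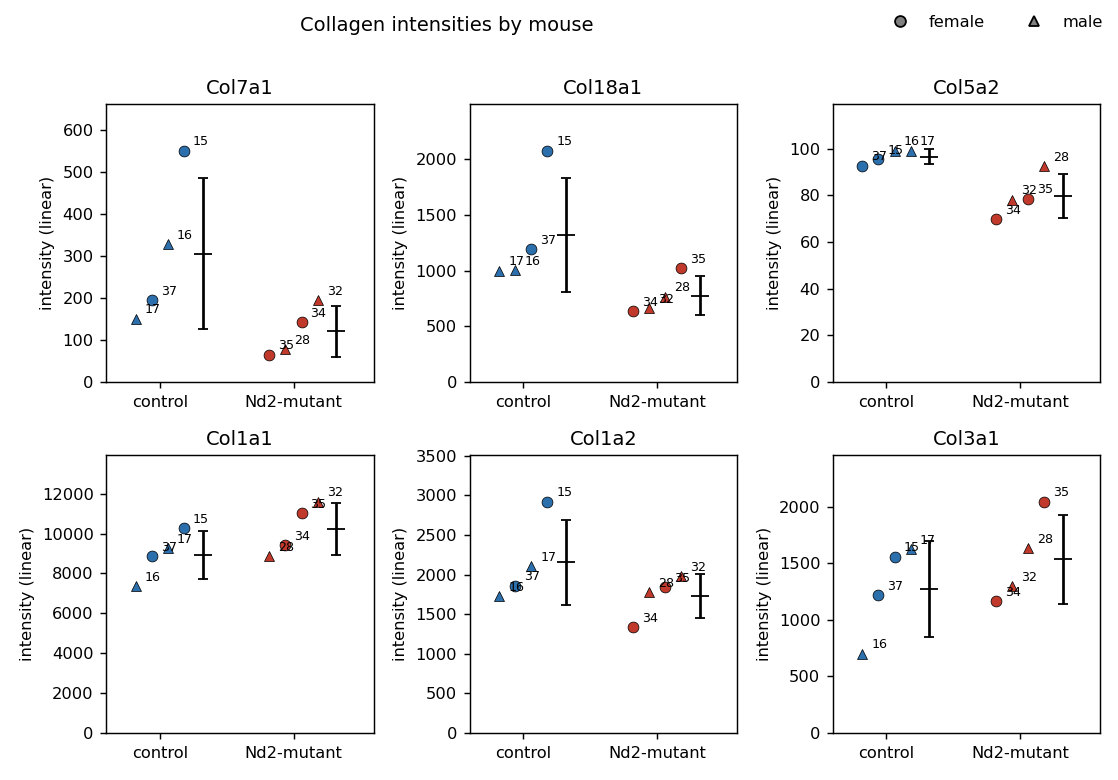
Intensity (linear scale, each axis from 0) of 6 collagen chains in the 4 control (blue) and 4 Nd2-mutant mice (red), with circles for female and triangles for male mice, the mouse number beside each point, and the mean ± SD beside each strain. Col5a2 is the probe without overlap, and the high control value of Col7a1, Col18a1 and Col1a2 is mouse 15 in each.

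At the upper end of the other collagens was Col28a1 (ILMN_3161091, chromosome 6), a beaded-filament collagen known mainly from peripheral nerve. Its intensity was 108, 19.2, 56 and 142 in Nd2-mutant and 66.6, 11.3, 17.6 and 46.6 in control mice. Col28a1 was detected on all 4 Nd2-mutant but only 3 control arrays. It thus entered the test only through the strain in which it was higher. The values spread over a wide range in both strains, and the log2 difference of 0.85 had a 95% confidence interval of -0.21 to 1.90 (adjusted p = 0.648, limma). It was 1.12 without mouse 15, with an unadjusted p of 0.0428 in limma, and 0.54 without mouse 35 and 0.59 without mouse 16. With 1 or 50 in place of 16 added before log2 it was 1.15 or 0.56. Col8a2, Col15a1 and Col23a1 had log2 differences between -0.11 and 0.18. That of Col23a1 depended on control mouse 15, at 260 where the other control mice had 34.8 to 44.3. Without this mouse Col23a1 was higher in Nd2-mutant fibroblasts at an unadjusted p under 0.05 (limma).

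The type VI chains form the beaded microfilaments that link cells to fibrils. Col6a1 was measured by 2 tested probes on chromosome 10. ILMN_2768087 had 7799, 6454, 5936 and 8269 in Nd2-mutant and 9470.0, 4762, 6584 and 7300.3 in control mice. Its log2 difference of 0.05 was far inside its standard error of 0.21, whereas ILMN_1259388 had -0.25 (standard error 0.23), so that the probes of 1 gene differed in sign without either passing the test (adjusted p = 0.955 and 0.745, limma). For the second of these the control mice lay between 4342 and 4983 except for mouse 15 at 8386, and without it the log2 difference was -0.04. Col6a2 (ILMN_1216661, chromosome 10) had 1818, 1138, 1201 and 2154 in Nd2-mutant and 2259.7, 838, 1364 and 1377 in control mice, a log2 difference of 0.15 (adjusted p = 0.887, limma).

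Chains that share a molecule were then compared across the 8 mice, for the 4 pairs of the 7 listed in which both chains were tested. Col6a1 and Col6a2 ran closely together, with Pearson's r = 0.964 (exact permutation p = 0.000124, adjusted over the 4 pairs 0.000496) and Spearman's rho = 0.976 (exact permutation p = 0.000397). Without mice 15 and 16, the 2 farthest from the median of Col6a1, r was 0.917, and it was 0.953 after centring on each sex. Mice 15, 35 and 28 were the 3 highest and mouse 16 the lowest in both chains. Col1a1 and Col1a2 had r = 0.309 (exact permutation p = 0.468) and rho = 0.407 (exact permutation p = 0.314), and r = 0.316 without mice 16 and 32. When each strain was centred on its own mean, r for the type I pair was 0.756 (permutation p = 0.031, adjusted 0.0413). This p is not exact, because centred values of a strain depend on each other, and no conclusion is drawn from it. Col5a1 and Col5a2 had r = -0.127 (exact permutation p = 0.752) and rho = -0.214, and r = -0.293 without mice 35 and 37.

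The Col4a1 and Col4a2 pair also passed the test at an adjusted exact permutation p of 0.00293, but female and male mice formed separate groups in both chains, so that no coefficient over all mice is given. Centred on each sex, r was 0.594 (permutation p = 0.126, likewise not exact), and with only 4 mice of each sex the relation within a sex was not tested. All 8 arrays share their normalization, and mouse 15 was among the 2 highest mice for Col1a2, Col4a1, Col4a2, Col5a1, Col6a1 and Col6a2.

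The 2 pairs that passed the test over all mice are also neighbours on their chromosomes. The type IV pair did not pass when centred on sex (r = 0.594). The type I pair, whose genes are on different chromosomes, had r = 0.309 over all mice and 0.756 when centred on strain. No conclusion is drawn from the centred value. In the RefSeq gene order Col4a1 is followed directly by Col4a2, and Col6a2 by Col6a1, among protein-coding genes. Col1a1 and Col1a2 lie on chromosomes 11 and 6 and Col5a1 and Col5a2 on chromosomes 2 and 1. Col3a1 and Col5a2 are neighbours too, but were not a listed pair and were not compared. The values of Col3a1 and Col5a2 in each mouse are given above. Whether position goes with the relation of chains was not tested. Col4a1 and Col4a2 are transcribed away from each other on opposite strands, and their RefSeq start windows, chr8:11312777-11313076 (minus strand) and chr8:11312555-11312854 (plus strand) in GRCm38.p6, overlapped by 78 bases, with 21 bases between the start positions. Col6a1 and Col6a2 run in the same direction, and their windows do not overlap. For Col6a2 a second RefSeq start has the window chr10:76623405-76623654, with 3 GC boxes, and the outermost start is the one printed. The upstream windows of Col6a1 and Col6a2 are shown for reference, and their relation to the RNA values was not tested. The capitals mark the same boxes as above and, in addition, the AP-1 motif TGANTCA, which reads the same on both strands.
Col6a1, chr10:76726045-76726294, minus strand: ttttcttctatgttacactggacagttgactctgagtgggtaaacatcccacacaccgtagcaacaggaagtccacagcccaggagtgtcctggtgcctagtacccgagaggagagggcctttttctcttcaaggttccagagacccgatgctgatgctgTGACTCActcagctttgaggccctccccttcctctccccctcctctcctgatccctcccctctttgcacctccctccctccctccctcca
Col6a2, chr10:76623631-76623880, minus strand: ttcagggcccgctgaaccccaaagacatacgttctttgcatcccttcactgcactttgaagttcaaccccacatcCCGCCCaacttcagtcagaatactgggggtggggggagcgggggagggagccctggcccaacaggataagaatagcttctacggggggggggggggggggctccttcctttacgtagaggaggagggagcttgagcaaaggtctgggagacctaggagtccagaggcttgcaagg
Col6a1 held 1 AP-1 motif, 90 bases before the start, and no GC box, and Col6a2 held 1 GC box and no AP-1 motif. An AP-1 motif occurred in 6.75% of all windows. None of these 4 windows contained a TATAAA sequence, which 12.4% of all windows held, and the search covered these letters only. Of the 36 collagen genes 29 had a window in the table.

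**Figure D4:**
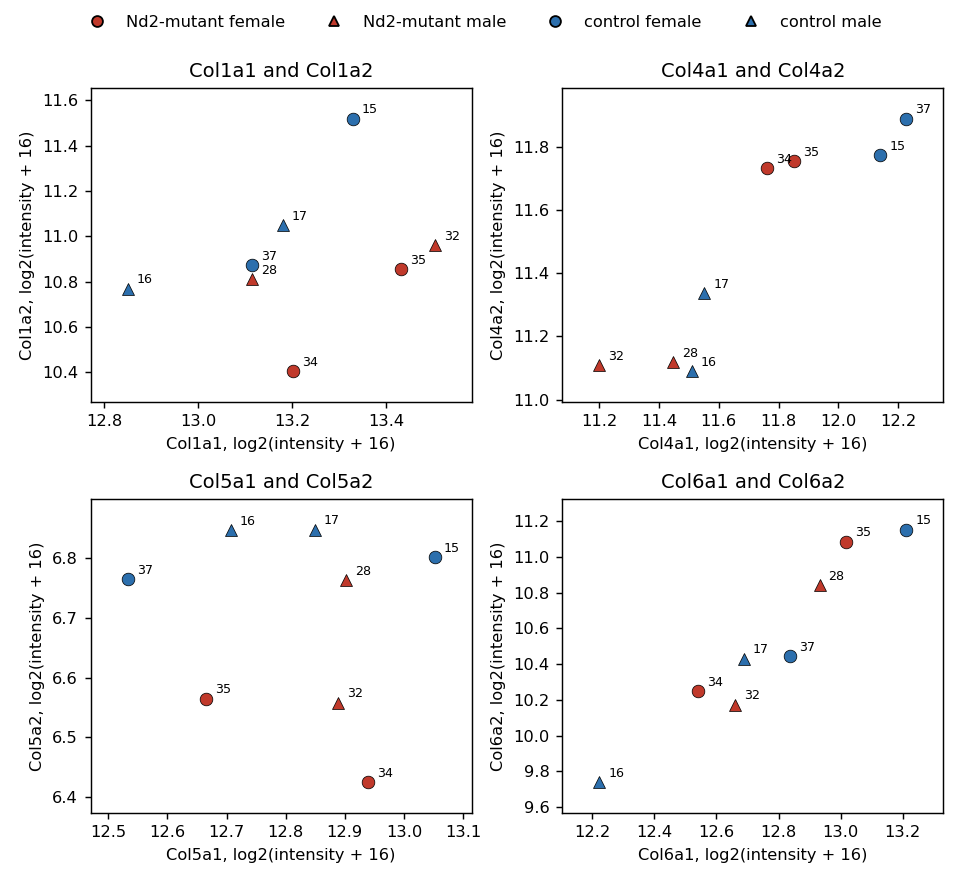
Paired chains of 1 collagen type across the 8 mice, each axis log2(intensity + 16) of the probe with the highest mean of that gene (red Nd2-mutant, blue control, circles female, triangles male, with mouse numbers). Col6a1 and Col6a2 fall along a line (r = 0.964), Col4a1 and Col4a2 split into a female and a male group, and the type I and type V pairs scatter.

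The split of the type IV chains by sex was seen in the values, and the sexes were then compared in a model that also held strain. For Col4a1 the 4 female mice lay between 3454 and 4782 and the 4 male mice between 2336 and 2986. For Col4a2 the ranges were 3386 to 3777 and 2163 to 2569.8. The sexes did not overlap in either gene, which were the 2 such probes among the 25, against 5.16% of all tested probes. The log2 difference, female minus male, was 0.57 for Col4a1 (standard error 0.13, unadjusted p = 0.00167, adjusted p = 0.312, limma) and 0.62 for Col4a2 (standard error 0.13, unadjusted p = 0.000743, adjusted p = 0.252, limma). Without each mouse in turn the differences stayed between 0.53 and 0.64 for Col4a1 and between 0.58 and 0.67 for Col4a2. Neither passed the adjustment in this model. With array weights, which gave mouse 15 a weight of 0.19 and the others between 0.624 and 1.73, the adjusted p was 0.0189 for Col4a1 and 0.0104 for Col4a2, in a fit that put 20.7% of all tested probes at an unadjusted p under 0.05, against 8.31% without the weights.

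In the comparison of the sexes 5 of 25 collagen probes had an unadjusted p under 0.05, against 8.31% of all tested probes, and 0 at an adjusted p under 0.05, against 0.0192%. Beside the type IV chains these were Col15a1, Col23a1 and Col28a1, named here after their values were seen, each higher in female mice by a log2 difference of 0.98, 1.15 and 0.97 in that order. Col23a1, a membrane-spanning collagen, was 120, 127, 260 and 44.3 in the female mice 34, 35, 15 and 37 and between 34.8 and 53.2 in the male mice. Female mouse 37 thus lay among the males, and without mouse 15 the log2 difference of Col23a1 was 0.70. Col15a1, a collagen of the outer basement membrane zone, lay between 181 and 695 in female and between 158 and 380.0 in male mice. In all 19 of the 25 probes (76%) were higher in female fibroblasts, against 47.6% of all tested probes. Mouse 15 is female, and without it 13 of 25 were (52%, against 50.5%).

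The strain difference was also set against sex directly. With limma 0 of 25 collagen probes had an interaction of strain and sex at an unadjusted p under 0.05, against 1.77% of all tested probes, and 0 at an adjusted p, against 0.0096%. As values without a test, 17 of the 25 probes were higher in Nd2-mutant than in control mice among the males, with a median log2 difference of 0.14, and 7 of 25 were higher among the females, with a median of -0.27. The medians over all tested probes were -0.02 and 0.02. Mouse 15 is 1 of the 2 female control mice, so that the difference between these medians cannot be told apart from that mouse. Col7a1 was lower in both sexes, by -0.76 in males and -1.61 in females, and Col18a1 ILMN_2735184 by -0.48 and -0.95.

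Genes that make, bind or sense collagen were read from 3 lists. Of 30 tested probes of 21 collagen processing genes 3 had an unadjusted p under 0.05, all higher in Nd2-mutant fibroblasts; of 8 tested probes of 5 collagen receptor genes 1 did, and of 10 tested probes of 7 genes of collagen-binding proteoglycans and fibril partners 2 did, again higher. None had an adjusted p under 0.05 (smallest 0.639, limma). The medians of the log2 difference were -0.03, -0.04 and 0.10 for the 3 lists, beside 0.00093 over all tested probes. Of all tested probes 7.63% had an unadjusted p under 0.05. The count of processing probes was 5 without control mouse 15 (7.91% of all probes) and 7 without control mouse 17 (14% of all probes), and the methods' t-test gave 0 of the fibril partner probes. Dcn and Lum also stand in the list of fibroblast markers.

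The processing genes were P4ha3, Crtap and Lepre1, each of which encodes a prolyl hydroxylase of collagen chains or a partner of such an enzyme. Other tested genes of these enzymes did not share the direction. The log2 differences were -0.29 for P4ha1, -0.25 for P4ha2, -0.17 for P4hb and 0.008 for Leprel2. P4ha3 (ILMN_2644175) is a catalytic subunit of a prolyl 4-hydroxylase, the enzyme that makes the 4-hydroxyproline on which the stability of the triple helix rests. Its intensities were 155, 148, 155 and 157 in Nd2-mutant mice 28, 32, 34 and 35 and 84.5, 66.7, 90.8 and 85.4 in control mice 15, 16, 17 and 37. The strains stood well apart, and mouse 15 was not set apart from the other control mice here. Crtap (ILMN_1223997) and Lepre1 (ILMN_1258906), which encode partners in the prolyl 3-hydroxylase complex, had log2 differences of 0.68 (standard error 0.23) and 0.40 (standard error 0.16). Crtap was between 1033 and 1231 in Nd2-mutant and between 508 and 999 in control mice, and a second Crtap probe had a log2 difference of 0.30 (unadjusted p = 0.0689, limma), also without overlap. Lepre1 overlapped between the strains, with 103 to 147 against 76.7 to 109.2, and its other tested probes had log2 differences of -0.19 (ILMN_3150634) and -0.04 (ILMN_2738468).

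Among the receptors, Itga11 (ILMN_2603054), the alpha chain of a fibroblast integrin for fibrillar collagen, was 94.7, 71.7, 126 and 121 in Nd2-mutant and 59.5, 35.5, 67.1 and 70.8 in control mice. The lowest Nd2-mutant and the highest control value nearly met, and the log2 difference was 0.69 (standard error 0.21, adjusted p = 0.639, limma). The other tested Itga11 probes, which were brighter, overlapped between the strains and had log2 differences of 0.08 (ILMN_2701778) and 0.14 (ILMN_2844032). Decorin, Dcn (ILMN_2596346), a small proteoglycan that binds type I fibrils, was 1642, 1676, 1609 and 2136 in Nd2-mutant and 1347, 544, 1500.2 and 851 in control mice. Lumican, Lum (ILMN_3001540), of the same family, was 214, 212, 265 and 254 against 201, 53.1, 178 and 103. Control mouse 16 was lowest in both, and without it the log2 differences of 0.82 and 0.88 were 0.54 and 0.55. A second, brighter Dcn probe, ILMN_2747959, overlapped and had a log2 difference of 0.12. The probes without overlap between the strains were 6 in the 3 lists, against 4.37% of all tested probes. They were both of Crtap and those of P4ha3, Itga11, Dcn and Lum whose values are given above. Each had an exact permutation p of 0.0286, which any probe without overlap has with 4 mice per strain. This p thus adds nothing to the lack of overlap. The tested probes of Col1a1, Col1a2 and Col3a1 overlapped between the strains.

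**Figure D5:**
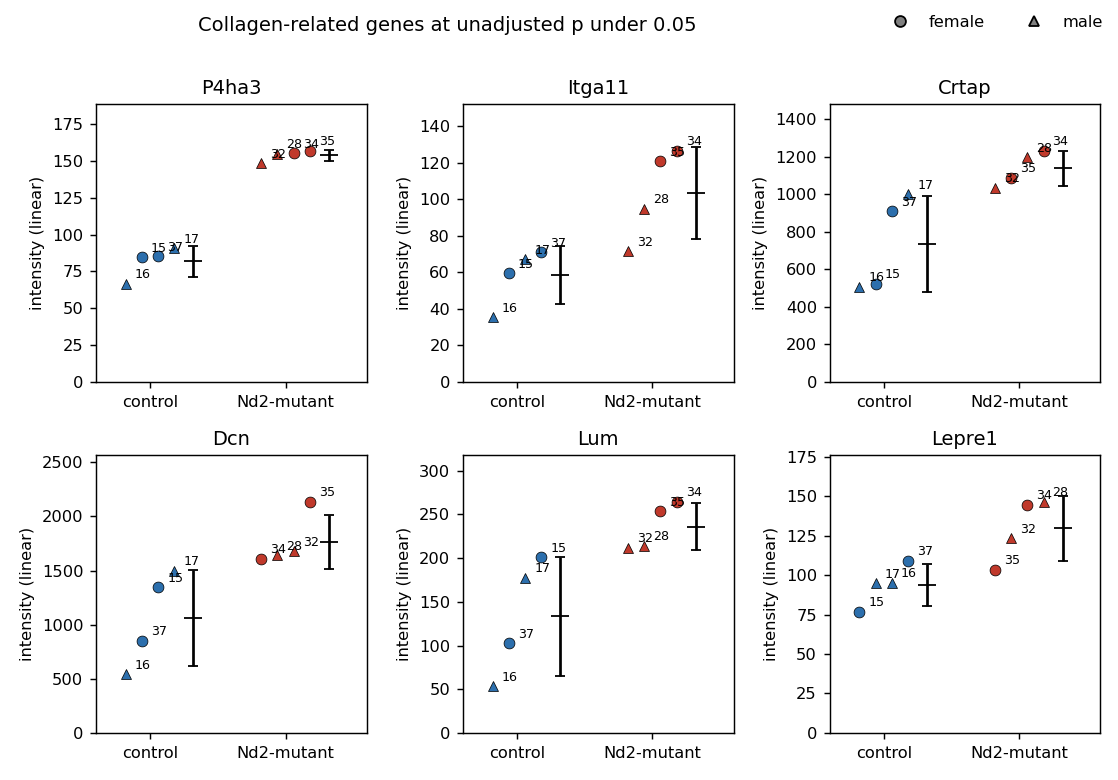
Intensity (linear scale, each axis from 0) of 1 probe each of the 6 collagen-related genes with an unadjusted p under 0.05, in the 4 control (blue) and 4 Nd2-mutant mice (red), with circles for female and triangles for male mice and the mean ± SD beside each strain. In 5 of the 6 panels all Nd2-mutant values lie above all control values, and Lepre1 overlaps.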

How the data were processed

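Illumina MouseRef-8 v2.0 arrays were used for the RNA of skin fibroblasts of 8 mice. The authors extracted the data in GenomeStudio, normalized them between arrays by quantiles and removed the background; the deposited intensity is linear, from -12.3 to 13935. The deposited detection p-value compares each probe with negative control beads. The second table, named as non-normalized, holds the same bytes and was not used, so that no other background correction or normalization could be tried. No chip is named, and strains share no mouse number. Between 10663 and 11350 probes were detected per array, and the number of arrays limits the precision. The methods name limma, and do not give the array or RNA batch.

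Intensities, with 0 in place of negative values, entered as log2(intensity + 16), and limma 3.58.1 (R 4.3.3; lmFit, eBayes, 2-sided) was fitted over all 10414 tested probes with Benjamini-Hochberg adjustment and a threshold of 0.05. Single probes were tested by exact permutation of 4 against 4, pairs of chains by exact permutation of pairings. For pairs centred on strain or sex the same permutation is only approximate. The steps were tested on simulated data. Sequences are from RefSeq (GRCm38.p6). The collagen members, classes, pairs and other lists, and the rule for named probes, were chosen with earlier results of these data known. Named were the tested probes of chains usual in dermis, those with an unadjusted p under 0.05 or without overlap, the extremes of each class and, in the other lists, genes with an unadjusted p under 0.05; others are named with a remark. Col6a3 and Col8a1 were not analysed here. Of the marker lists, melanocytes and adipocytes had 0 tested genes, with summed intensities up to 31.9 and 14.3. Macrophage markers summed to 1639 in Nd2-mutant mouse 35 and to at most 562 in the other mice, and smooth muscle and pericyte markers to between 23786 and 26479 in Nd2-mutant and between 21705 and 33306 in control mice. Results were recomputed with 1 or 50 added, on the linear scale, with other detection filters and by the methods' t-test, here on the log2 scale. They were also recomputed with an intensity trend, array weights or sex as a term, without each mouse and within each sex. The comparison of the sexes and the centring of pairs on sex were added after the data had been seen.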

Additional observations from a re-analysis of the deposited data

Results flagged for a closer look

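Among the 16 named collagen probes, the 4 mice of each strain were examined for 1 value lying apart from the others, 32 groups of 4 in all, of which chance sets about 1 in 20 apart. 2 were found, and in both the value was that of control mouse 15. For Col16a1 (ILMN_1248099) mouse 15 had 3726 and the other control mice between 2027 and 2206, and the gap made up 0.895 of the whole range of the control mice. For Col6a1 (ILMN_1259388) mouse 15 had 8386 and the others between 4342 and 4983, a share of 0.841. Without mouse 15 the log2 difference between the strains was 0.04 for Col16a1 and -0.04 for this Col6a1 probe.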

How the results depend on the processing

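No alternative brought a collagen probe to an adjusted p under 0.05 between the strains, with limma or the methods' t-test. The 2 probes at an unadjusted p under 0.05 were 1 on the linear scale (Col5a2) and 1 with array weights (Col18a1), and between 2 and 5 when mice were left out in turn, with 5 without control mouse 15. The median of the other collagens was -0.54 in females alone and -0.24 over the 9 probes detected on all 8 arrays. The median of all collagens ran from -0.22 without control mouse 16 to 0.14 without control mouse 15 and was 0.0017 with array weights. Leaving out mice in turn gave medians from -0.14 to 0.15 for the fibrillar, -0.24 to 0.03 for the basement membrane, -0.21 to 0.07 for the FACIT and -0.33 to 0.09 for the other collagens. Of 438 recomputed log2 differences of the 22 named probes 15 changed sign, in 6 probes. For Col16a1 the value was 0.0017 with array weights, 0.0375 without mouse 15 and 0.00905 in males alone; for Col6a1 ILMN_1259388 0.0876 in males alone; for Col6a1 ILMN_2768087 -0.246 and for Col6a2 -0.131 in females alone. With mice left out in turn Col5a1 ran from -0.0208 to 0.152, Col4a2 from -0.238 to 0.0286, Col16a1 from -0.254 to 0.0375, Col6a1 ILMN_2768087 from -0.125 to 0.204 and Col6a2 from -0.0889 to 0.382. Col7a1 and Col18a1 were lower under every setting run. The collagen processing probes at an unadjusted p under 0.05 were 3, between 2 and 7 without single mice, 5 on the linear scale, without the filter and by the methods' t-test, and the 2 fibril partner probes were 0 by that test. Between the sexes, array weights gave 3 collagen probes at an adjusted p under 0.05, where 3.75% of all probes passed, and leaving out mice gave between 3 and 7 at an unadjusted one. The 2 chain pairs were 1 when centred on each sex and 3 when centred on each strain, by permutations that are only approximate for centred values. For Col5a1 and Col5a2 r was 0.0575 when centred on each strain and ran from -0.348 to 0.109 without single mice. The causes were not tested. No paired analysis was possible because no mouse number occurs in both strains, and no block for chips or other normalization could be run. 4 mice per strain limit every comparison, and probes near background have only small changes on the scale used.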
